A study of Mus musculus with 12 samples.

Results

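The matrix metalloproteinases (Mmp genes), the ADAMTS proteases (Adamts genes) and the tissue inhibitors of metalloproteinases (Timp genes) were followed in the livers of Abcb11-/- and WT mice and in the lungs of offspring born to mothers of either genotype. Members were chosen by gene symbol, with Mmp8 left out. They were 34 of the 17097 genes with a probe set of a single symbol, namely 17 Mmp, 14 Adamts and 3 Timp genes on 62 probe sets. For each gene and tissue the probe set with the highest mean over the 6 arrays was used. Members with a mean above a log2 value of 6 in a tissue were described in full there.

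The liver arrays came from female Abcb11-/- mice and female WT mice, 3 of each, all C57BL/6 and 1.5 months old. The lung arrays came from C57BL/6 offspring at embryonic day 17.5 (E17.5), embryonic day 18.5 (E18.5) and neonatal day 0 (PN0), with 1 array from an Abcb11-/- mother and 1 from a WT mother at each stage. All lung samples were heterozygous, Abcb11+/-, because each mother had been bred with a male of the other genotype, so the mothers differed in genotype while the offspring did not. Abcb11 encodes the bile salt export pump of the hepatocyte, and Abcb11-/- mice are a whole-body deletion that develops cholestasis. The labels do not state how many animals each lung array represents.

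Matrix metalloproteinases are zinc endopeptidases that cut collagens, laminins and other matrix proteins, and several are made as inactive precursors that need cleavage. ADAMTS proteases are secreted enzymes with thrombospondin repeats, several of which cut the large proteoglycans versican and aggrecan. TIMPs bind the active sites of these enzymes, and Timp3 is held in the matrix and also blocks several ADAMTS and ADAM proteases. In the liver such genes are known mostly from stellate cells, macrophages and endothelium, and in the lung from mesenchyme around the growing airspaces.

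The values were log2 array signals, with array medians of 3.15 to 3.18 in liver and 3.63 to 3.68 in lung. Abcb11 itself was at 2.90 to 3.26 in Abcb11-/- livers and 10.88 to 11.22 in WT livers. The albumin gene Alb was at 13.81 to 13.84 in Abcb11-/- livers and 13.80 to 13.84 in WT livers, and the surfactant gene Sftpc was at 13.23 to 13.39 in the lungs. The E17.5 array from an Abcb11-/- mother stood apart, since Alb was 13.01 there against at most 9.05 on the other 5 lung arrays, and the muscle gene Acta1 was 10.60 against at most 6.44. In tissue samples, fewer cells of a type and less RNA per cell cannot be told apart.

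Only 3 of the 34 members were above log2 6 in liver, against 37.3% of all genes, and 9 of 34 were above it in lung, against 42.2% of all genes. The 3 in liver were Mmp14, Timp2 and Timp3, with means of 8.40, 6.63 and 6.24. The 9 in lung were these 3 with Mmp2, Mmp11, Adamts1, Adamts9, Adamts10 and Adamts12. The other 25 members were at or below 6 in both tissues. In liver, 26 members had a mean below 4, and in lung 17 did. Just outside the limit stood Adamts1 at 5.51 and Mmp19 at 5.41 in liver, and Adamts15 at 5.93, Timp1 at 5.82 and Mmp23 at 5.79 in lung. Since the tissues were summarized apart, levels were not compared between them, nor between probe sets of different genes.

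Members lay on 15 chromosomes, with 11 of the 34 on chromosome 9. Among these, Mmp1a, Mmp1b, Mmp3, Mmp10, Mmp12 and Mmp13 form a run of neighbours, and all 6 were dim in both tissues. Adamts8 and Adamts15 also neighbour each other on chromosome 9, and Adamts1 and Adamts5 on chromosome 16.

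Promoter windows of RefSeq (build GRCm38.p6, 250 bases before to 50 after a start) were matched for 21 of the 34 members. Windows of 4 members that the results turn on are shown beside that of Mmp13, a collagenase that was dim in both tissues. Capitals mark every AP-1 motif (TGAGTCA), GC box (GGGCGG) and TATA box (TATAAA) on either strand, and none of these overlaps another. The Mmp14 window lies at chr14:54431348-54431647 on the plus strand, that of Timp3 at chr10:86300162-86300461 on the plus strand, that of Adamts9 at chr6:92943485-92943784 on the minus strand, that of Adamts1 at chr16:85803064-85803363 on the minus strand and that of Mmp13 at chr9:7272264-7272563 on the plus strand.
Mmp14 promoter: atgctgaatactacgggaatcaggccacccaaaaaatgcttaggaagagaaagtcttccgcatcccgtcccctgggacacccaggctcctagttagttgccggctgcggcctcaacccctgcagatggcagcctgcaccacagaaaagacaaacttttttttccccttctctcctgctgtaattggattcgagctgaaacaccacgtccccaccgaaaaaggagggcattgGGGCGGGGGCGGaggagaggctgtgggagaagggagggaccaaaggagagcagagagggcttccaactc
Timp3 promoter: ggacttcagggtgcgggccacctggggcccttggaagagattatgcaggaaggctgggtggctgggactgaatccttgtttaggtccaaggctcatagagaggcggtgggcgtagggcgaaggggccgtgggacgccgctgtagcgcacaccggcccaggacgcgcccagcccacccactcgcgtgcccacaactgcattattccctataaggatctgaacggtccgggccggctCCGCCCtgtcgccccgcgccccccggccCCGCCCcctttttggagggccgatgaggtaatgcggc
Adamts9 promoter: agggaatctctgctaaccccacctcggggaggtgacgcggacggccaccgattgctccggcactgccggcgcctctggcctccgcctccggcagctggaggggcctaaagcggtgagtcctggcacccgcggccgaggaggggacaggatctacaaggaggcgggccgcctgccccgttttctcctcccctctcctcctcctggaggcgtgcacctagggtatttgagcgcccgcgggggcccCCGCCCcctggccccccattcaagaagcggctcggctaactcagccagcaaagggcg
Adamts1 promoter: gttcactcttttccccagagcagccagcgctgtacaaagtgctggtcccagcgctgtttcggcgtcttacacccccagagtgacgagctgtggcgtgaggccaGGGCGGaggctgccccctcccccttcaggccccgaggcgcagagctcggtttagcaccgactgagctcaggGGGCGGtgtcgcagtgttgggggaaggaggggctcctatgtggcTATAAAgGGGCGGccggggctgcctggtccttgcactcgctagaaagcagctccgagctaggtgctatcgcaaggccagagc
Mmp13 promoter: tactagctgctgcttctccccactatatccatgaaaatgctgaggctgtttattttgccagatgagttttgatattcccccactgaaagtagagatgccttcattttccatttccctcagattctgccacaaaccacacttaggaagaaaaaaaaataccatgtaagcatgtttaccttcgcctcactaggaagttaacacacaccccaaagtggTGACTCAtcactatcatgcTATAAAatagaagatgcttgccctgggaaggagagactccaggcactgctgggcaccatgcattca

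The windows of Mmp14 and Timp3 each hold 2 GC boxes, that of Adamts9 holds 1, and that of Adamts1 holds 3 with a TATA box. The Mmp13 window holds no GC box but an AP-1 motif and a TATA box. Of the 9 members above log2 6 in lung, 7 had a window, and a GC box was found for 6 of them, a TATA box for 1 and an AP-1 motif for 0. Of the 25 at or below 6 in lung, 14 had a window, of which 7 held an AP-1 motif, 6 a GC box and 8 a TATA box. The 7 with an AP-1 motif were Mmp1a, Mmp1b, Mmp3, Mmp7, Mmp10, Mmp12 and Mmp13, whose means ran from 2.83 to 3.30 in lung and from 2.50 to 3.61 in liver. Over all 32851 windows, 5.2% held the AP-1 motif, 35.7% the GC box and 13.6% the TATA box. These matches describe letters in the window only.

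The liver comparison asked which of these genes differ between Abcb11-/- and WT mice. In Abcb11-/- livers 4 of 34 members were higher at a limma adjusted p under 0.05, namely Mmp14, Adamts7, Adamts9 and Adamts15, while 4.33% of all 17097 genes were higher. No member was called lower (0 of 34), against 2.91% of all genes. At an unadjusted p under 0.05 limma gave 8 members higher and 2 lower, against 12% and 9.61% of all genes. The median difference over the 34 members was 0.02 on the log2 scale, and over all genes it was 0.00. The groups did not overlap for 8 higher and 2 lower members, against 13.8% and 12.1% of all genes. Exact permutation of 3 against 3 arrays cannot give a p below 0.1, so single genes rest on limma.

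Mmp14 encodes MT1-MMP, a membrane-anchored collagenase that also activates the precursor of Mmp2. It was at 8.66, 8.49 and 8.88 in Abcb11-/- livers, against 8.22, 8.04 and 8.13 in WT livers. The lowest Abcb11-/- value lay above the highest WT value. The mean was 8.68 ± 0.20 in Abcb11-/- and 8.13 ± 0.09 in WT (SD, n = 3 each), a log2 difference of 0.55 (SE 0.12, 95% interval 0.27 to 0.82) or 1.46-fold, with a limma adjusted p of 0.0346. The call was lost in 5 of the 6 fits that left out an array (limma adjusted p 0.0195 to 0.138) and on the mean of both probe sets (0.27, limma adjusted p 0.238), where the dimmer probe set was at 3.90 in both genotypes.

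**Figure D1:**
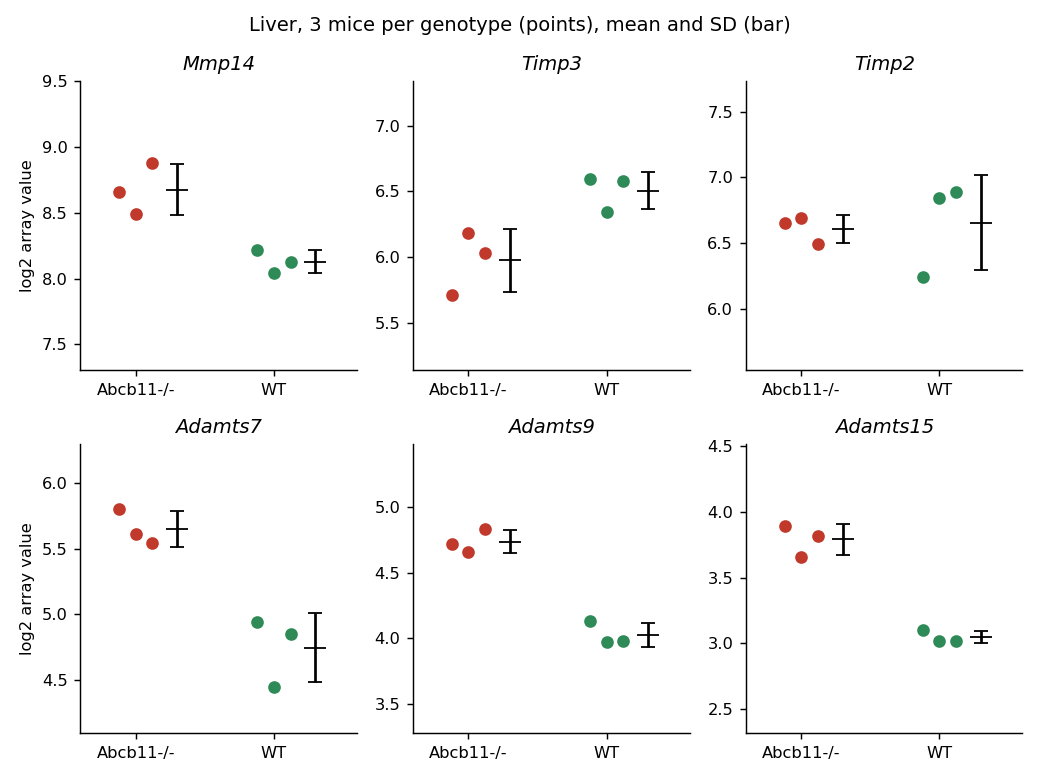
Deposited log2 array values of 6 members in the liver, with 3 Abcb11-/- mice left and 3 WT mice right in each panel. Points are mice and the bar is the mean with its SD. Mmp14, Adamts7, Adamts9 and Adamts15 do not overlap between genotypes and are higher in Abcb11-/-, Timp3 does not overlap and is lower, and Timp2 overlaps.

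Another 3 proteases moved at low levels. Adamts7, an enzyme known for cutting cartilage oligomeric matrix protein, was at 5.80, 5.61 and 5.54 in Abcb11-/- livers, against 4.94, 4.45 and 4.85 in WT livers. The groups were clearly apart, and the log2 difference was 0.90 (SE 0.15) or 1.87-fold, with a limma adjusted p of 0.0118. Adamts15, which cuts versican and aggrecan, was at 3.89, 3.66 and 3.82 in Abcb11-/- livers, against 3.10, 3.02 and 3.02 in WT livers. All Abcb11-/- values exceeded all WT values, with a log2 difference of 0.74 (SE 0.09) or 1.67-fold and a limma adjusted p of 0.00487.

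Adamts9 encodes another versican and aggrecan protease. It was at 4.72, 4.66 and 4.83 in Abcb11-/- livers, against 4.13, 3.97 and 3.98 in WT livers. Here too the genotypes did not overlap, and the log2 difference was 0.71 (SE 0.09) or 1.64-fold, with a limma adjusted p of 0.00558. Its other 2 probe sets were dimmer and showed differences of -0.05 and -0.03, so that the mean of its 3 probe sets gave 0.21 with a limma adjusted p of 0.117. Adamts7, Adamts9 and Adamts15 were called in all 6 fits that left out an array. On such dim probe sets log2 values can misstate the size of a change, which was not measured here.

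None of the 3 Timp genes was called in liver. Timp3 was at 5.71, 6.18 and 6.03 in Abcb11-/- livers, against 6.59, 6.34 and 6.58 in WT livers. Each Abcb11-/- value lay below each WT value. The mean was 5.97 ± 0.24 in Abcb11-/- and 6.50 ± 0.14 in WT (SD, n = 3 each), a log2 difference of -0.53 (95% interval -0.86 to -0.20), but the limma adjusted p of 0.0656 missed the threshold. The next brightest of its 4 probe sets gave -0.55, and the other 2 gave -0.06 and -0.12. It was called in only 1 of the 6 fits that left out an array (limma adjusted p 0.0387 to 0.193). That was the fit without Abcb11-/- replicate 2, with a difference of -0.63. Tested among the 6371 genes above log2 6 alone it had a limma adjusted p of 0.0409. Its mean over all 6 arrays, 6.24, was above that limit only through the WT livers, so this pass adds no support.

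Timp2, which inhibits metalloproteinases and also takes part in the activation of Mmp2, was at 6.65, 6.69 and 6.49 in Abcb11-/- livers, against 6.24, 6.84 and 6.89 in WT livers. The Abcb11-/- values lay within the WT range, and the log2 difference was -0.05 (95% interval -0.46 to 0.36, limma adjusted p 0.921). Over its 5 probe sets the difference ran from -0.28 to 0.03. Timp1, the inducible inhibitor, was dim, at 2.93, 3.01 and 3.11 in Abcb11-/- livers against 2.57, 2.54 and 2.85 in WT livers. Its groups were apart, and the difference was 0.36 (limma adjusted p 0.102).

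**Figure D2:**
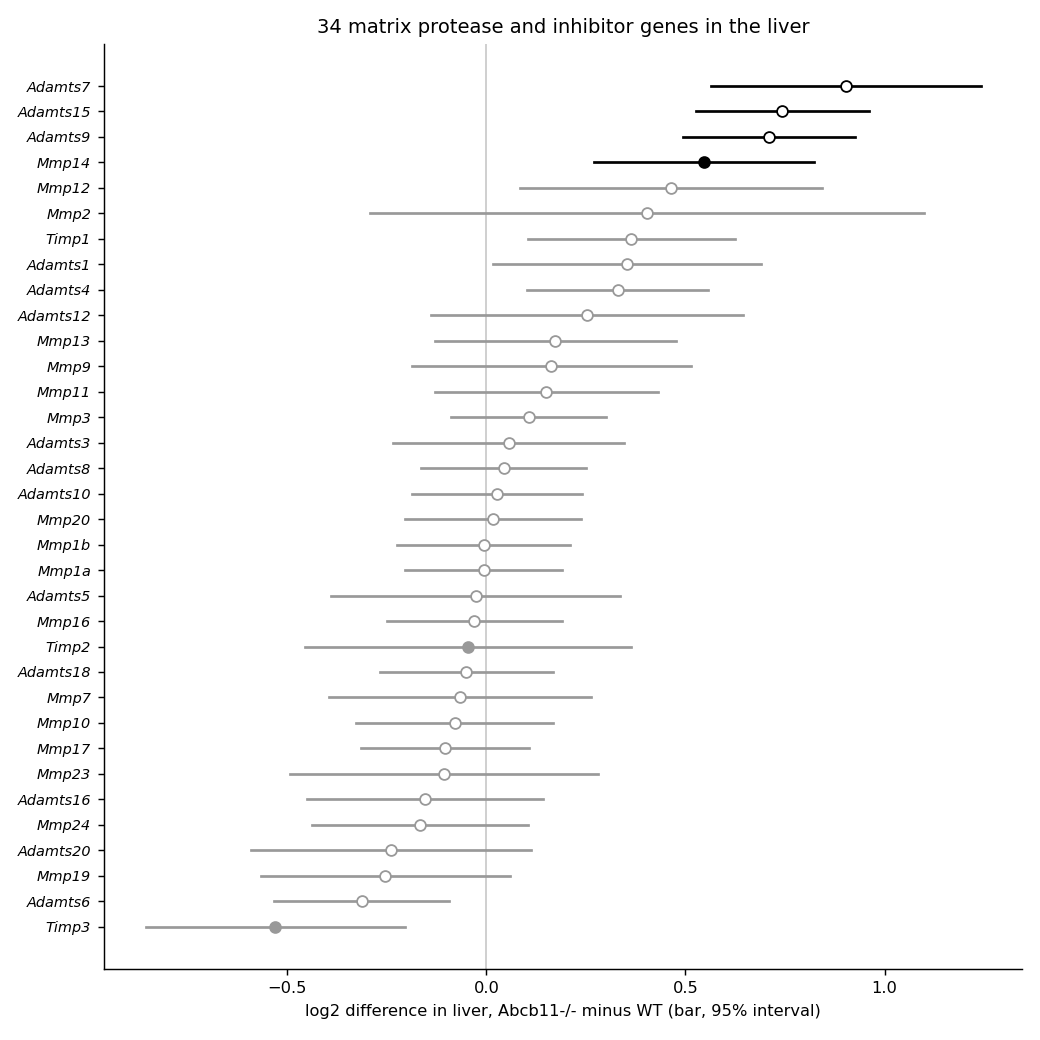
Log2 difference in liver, Abcb11-/- minus WT, for all 34 members, with 95% intervals from limma (n = 3 each). Black marks the 4 members at an adjusted p under 0.05, and filled points mark the 3 members above log2 6. Adamts7 is at the top at 0.90, and Timp3 at the bottom at -0.53.

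The remaining members were not called in liver. The versican protease Adamts1 (0.35, limma adjusted p 0.211), the macrophage elastase Mmp12 (0.46, limma adjusted p 0.147), the aggrecanase Adamts4 (0.33, limma adjusted p 0.0913) and Adamts6 (-0.31, limma adjusted p 0.0969) did not overlap between genotypes. Mmp12 was at 3.05, 3.44 and 3.73 in Abcb11-/- livers, against 2.96, 2.95 and 2.92 in WT livers. It passed only without Abcb11-/- replicate 1, at 0.64 and a limma adjusted p of 0.0184. Mmp2, or gelatinase A, was at 5.60, 4.61 and 4.32 in Abcb11-/- livers, against 4.27, 4.51 and 4.54 in WT livers. One Abcb11-/- liver alone was high, and on that array the collagen gene Col3a1 was also at 11.53, against 9.97 and 10.55 in the other Abcb11-/- livers and 9.43, 9.77 and 10.31 in WT livers.

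Among 42 measured partners of these enzymes (activators, other inhibitors and ADAMTS-like proteins), 2 were higher and 1 was lower in Abcb11-/- livers by limma, with a median difference of 0.06. Over all genes 4.33% were higher and 2.91% lower, and the counts of partners, and of substrates below, were near these shares. Reck, a membrane-anchored inhibitor of metalloproteinases, was at 6.74, 6.65 and 6.48 in Abcb11-/- livers, against 4.85, 5.95 and 5.38 in WT livers. That was a log2 difference of 1.23 with a limma adjusted p of 0.0272. Adamtsl1, an ADAMTS-like protein that lacks the protease domain, was at 5.48, 4.96 and 5.28 in Abcb11-/- livers, against 3.32, 3.62 and 3.75 in WT livers. Its difference of 1.68 had a limma adjusted p of 0.00204, and Bmp1, the procollagen C-proteinase, was lower by -0.41 (limma adjusted p 0.0451). Of 23 measured matrix substrates 1 was higher, the basement membrane gene Nid1 (1.46, limma adjusted p 0.0134), and 1 was lower, fibronectin Fn1 (-0.47, limma adjusted p 0.0255).

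Markers of some other cell types also differed, where 4.33% of all genes were higher and 2.91% lower. Of 10 neutrophil markers 3 were higher in Abcb11-/- livers, and their summed signal was at a log2 value of 7.78 to 9.25 in Abcb11-/- and 6.72 to 7.15 in WT. Of 8 cholangiocyte markers 3 were higher, with a summed signal of 8.27 to 8.68 in Abcb11-/- and 7.03 to 7.17 in WT. Both sums were apart between genotypes. For 16 macrophage markers 0 were called and the sums were 11.75 to 13.06 in Abcb11-/- and 11.89 to 12.45 in WT, and for 15 stellate cell markers 0 were higher and 1 was lower, with sums of 10.98 to 11.96 in Abcb11-/- and 11.01 to 11.44 in WT. The part of these cells in the results was not tested.

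In the lung the question was how the members change towards birth and whether the mother's genotype goes with a difference. From E17.5 to PN0, 4 of 34 members rose in limma with terms for stage and mother, namely Adamts1, Adamts8, Adamts15 and Mmp9, against 3.06% of all genes. No member fell (0 of 34, against 2.83%), while 11 members, and 24.6% of all genes, had an unadjusted p under 0.05 in either direction. Over the single steps no member was called. From E17.5 to E18.5 limma called 0 of 34 members (4 at an unadjusted p under 0.05, against 12.8% of all genes), where 0.0526% of all genes were called higher and 0.00585% lower, and from E18.5 to PN0 it called 0 of 34 (8 at an unadjusted p under 0.05, against 12.3% of all genes), as it called 0% of all genes in either direction. With a trended and robust prior 1 member, Adamts15, was called over the last step (1.22, limma adjusted p 0.0467). That fit called 62 of all 17097 genes higher and 25 lower.

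Adamts15 rose most of the 4 when averaged over the mothers, though with a WT mother Mmp9 rose more (2.18 against 1.95). With an Abcb11-/- mother it was at 4.77, 5.77 and 6.90 at E17.5, E18.5 and PN0, and with a WT mother at 5.18, 5.81 and 7.13. It was higher at each later stage with either mother. From E17.5 to PN0 the log2 difference was 2.04 (SE 0.15, 95% interval 1.67 to 2.41) or 4.11-fold, with a limma adjusted p of 0.00898. Its neighbour on chromosome 9, Adamts8, an ADAMTS protease known for restraining vessel growth, was at 3.62, 4.20 and 4.59 with an Abcb11-/- mother and at 3.86, 4.47 and 4.82 with a WT mother. It also stood higher at each stage, with a difference of 0.96 (SE 0.13, limma adjusted p 0.0220).

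Adamts1 was at 9.07, 9.61 and 10.60 at E17.5, E18.5 and PN0 with an Abcb11-/- mother and at 9.04, 9.59 and 9.79 with a WT mother. It went up at every step with both mothers, and the larger last step was with the Abcb11-/- mother. From E17.5 to PN0 the difference was 1.14 (SE 0.23) or 2.21-fold, with a limma adjusted p of 0.0478. That call was lost in all 6 fits that left out an array (limma adjusted p 0.0749 to 0.108), where the difference ran from 0.75, without the PN0 array of the Abcb11-/- mother, to 1.54, without that of the WT mother. Mmp9, the gelatinase B that neutrophils store in granules, was at 4.05, 4.38 and 4.95 with an Abcb11-/- mother and at 3.86, 4.43 and 6.05 with a WT mother, a rise of 1.54 (SE 0.31, limma adjusted p 0.0493). Its other probe set was higher at PN0 as well, by 0.53 with an Abcb11-/- mother and 1.24 with a WT mother, but the mean of both probe sets was not called (1.21, limma adjusted p 0.0576). Leaving out an array moved the rise of Mmp9 to between 0.95, without the PN0 array of the WT mother, and 2.12, without that of the Abcb11-/- mother. The summed signal of 10 neutrophil markers was 10.56, 9.98 and 11.35 over the stages with an Abcb11-/- mother and 9.49, 9.57 and 12.02 with a WT mother, and its part in the rise of Mmp9 was not tested.

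These stage calls rested on few arrays and were not tested against a spread between replicates. On the mean of all probe sets 4 members were again called, with Timp3 in place of Mmp9, where 471 of all 17097 genes were higher. Every fit without 1 array left a stage with a single array, so counts of calls are not given for these fits. Which members were called changed with the array left out, as did the number of all genes called. No member was called in every such fit. The rise from E17.5 to PN0 ran from 1.90 to 2.18 for Adamts15, 0.96 to 0.97 for Adamts8 and 0.55 to 1.04 for Timp3. Without the array with high Alb, that of an Abcb11-/- mother at E17.5, the difference of Adamts7 was -1.44.

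**Figure D3:**
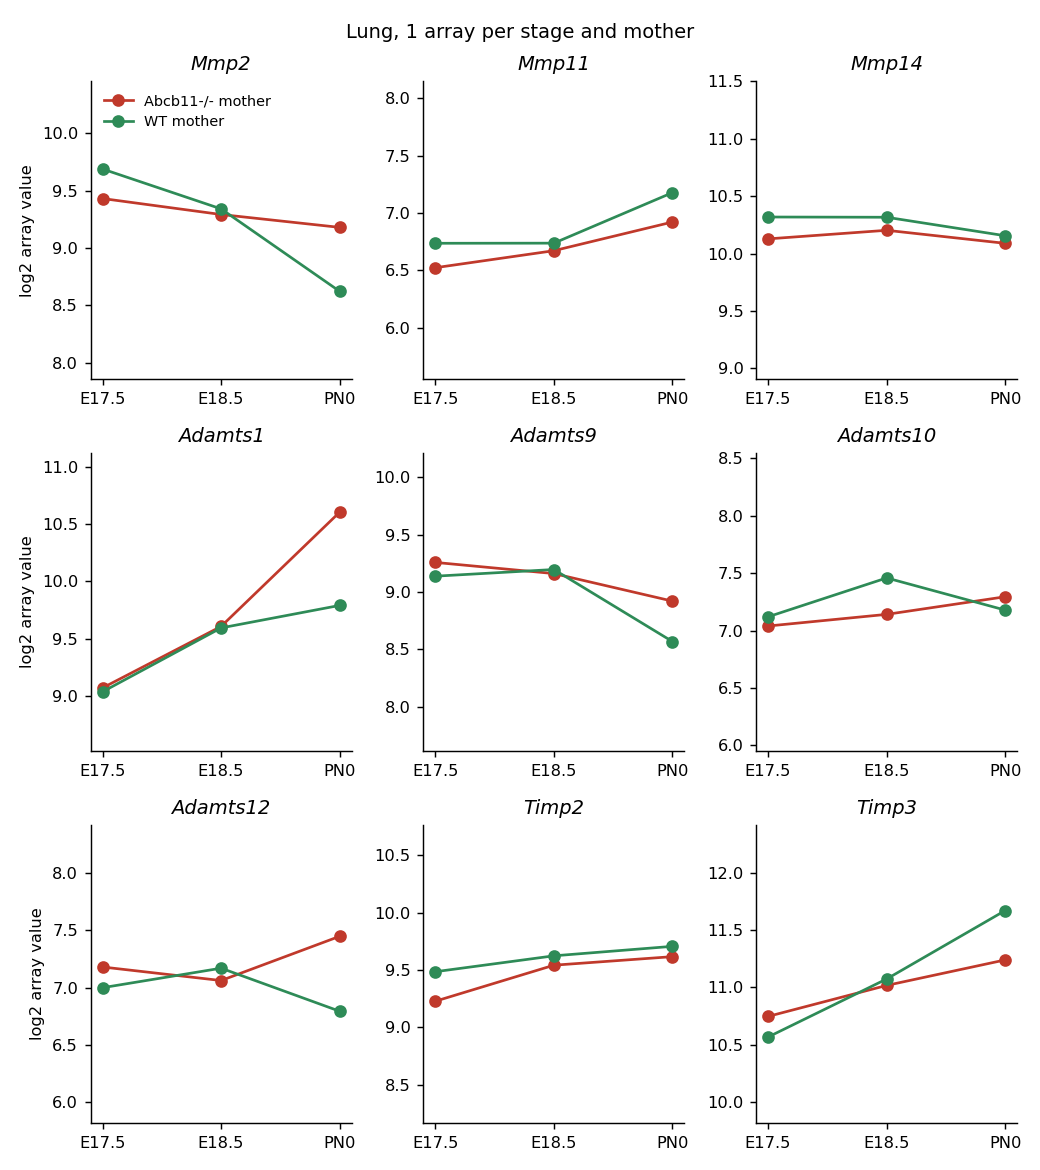
Log2 array values in lung of the 9 members above log2 6, by stage, with 1 array per stage and mother. Red is the Abcb11-/- mother and green the WT mother. Adamts1 reaches 10.60 with the Abcb11-/- mother at PN0 against 9.79 with the WT mother, Timp3 is higher at each later stage with both mothers, and Mmp14 stays between 10.09 and 10.32.

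The metalloproteinases above log2 6 in lung were not called between stages. Mmp2, which cuts denatured collagen and collagen IV, was at 9.43, 9.29 and 9.18 at E17.5, E18.5 and PN0 with an Abcb11-/- mother and at 9.69, 9.34 and 8.62 with a WT mother. It was lower at each later stage with either mother, and the difference of -0.66 from E17.5 to PN0 had a 95% interval of -1.19 to -0.12 (limma adjusted p 0.136). Mmp14 was at 10.13, 10.20 and 10.09 with an Abcb11-/- mother and at 10.32, 10.32 and 10.16 with a WT mother. Its stage difference was -0.10 (95% interval -0.42 to 0.22, limma adjusted p 0.700). Mmp11, or stromelysin-3, was at 6.52, 6.67 and 6.92 with an Abcb11-/- mother and at 6.74, 6.74 and 7.18 with a WT mother, highest at PN0 with both, but its 0.42 was not called (limma adjusted p 0.129).

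The other ADAMTS proteases were not called between stages. Adamts9 was at 9.26, 9.16 and 8.92 with an Abcb11-/- mother and at 9.14, 9.20 and 8.57 with a WT mother, lowest at PN0 with both, a difference of -0.45 (limma adjusted p 0.139). Its other 2 probe sets gave 1.12 and 0.22 from E17.5 to PN0 with an Abcb11-/- mother, against that direction, and -0.15 and -0.07 with a WT mother. Adamts10, which acts on fibrillin microfibrils, was at 7.04, 7.14 and 7.29 with an Abcb11-/- mother and at 7.12, 7.46 and 7.18 with a WT mother. Adamts12 was at 7.18, 7.06 and 7.45 with an Abcb11-/- mother and at 7.00, 7.17 and 6.79 with a WT mother. Neither kept one direction over the stages with both mothers.

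Both inhibitors were highest at PN0. Timp3 was at 10.75, 11.02 and 11.24 with an Abcb11-/- mother and at 10.57, 11.07 and 11.67 with a WT mother. It was higher at each stage with either mother, and all 4 of its probe sets were higher at PN0 than at E17.5, by 0.49 to 0.80 with an Abcb11-/- mother and 0.92 to 1.18 with a WT mother. The brightest gave 0.80 (95% interval 0.35 to 1.24), but its limma adjusted p of 0.0610 missed the threshold, and the mean of the 4 probe sets passed (0.84, limma adjusted p 0.0370). Timp2 was at 9.23, 9.54 and 9.62 with an Abcb11-/- mother and at 9.48, 9.62 and 9.71 with a WT mother, a difference of 0.31 with an interval of -0.03 to 0.64 (limma adjusted p 0.236).

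**Figure D4:**
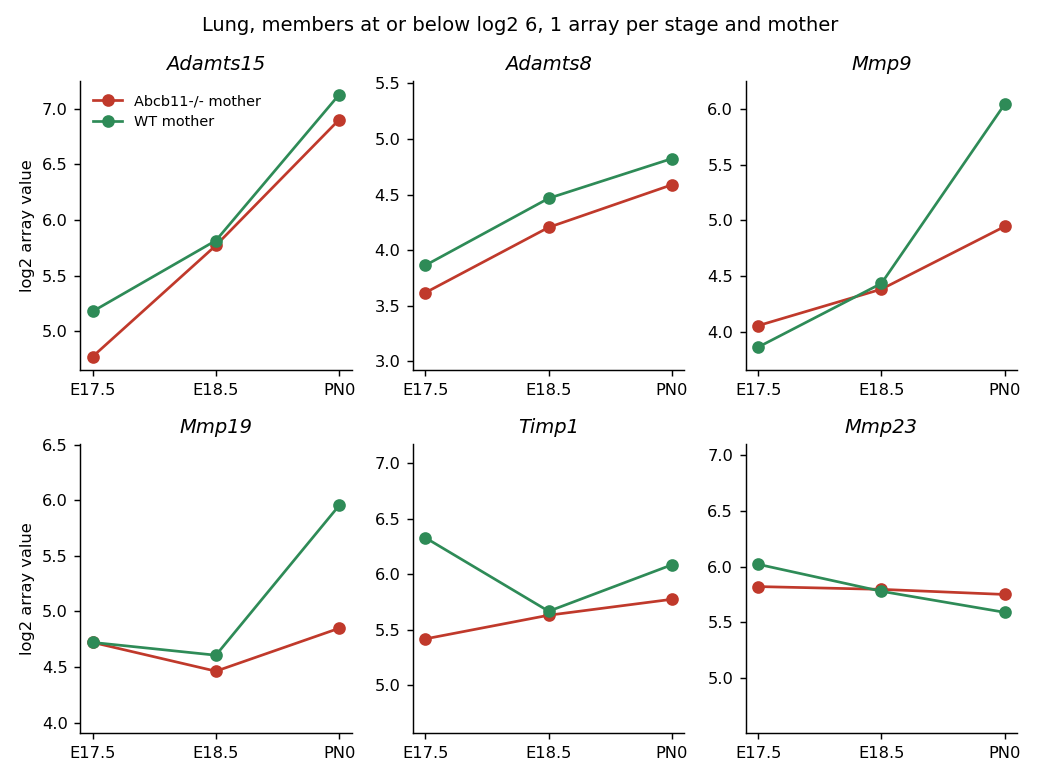
Log2 array values in lung of 6 members with a mean at or below 6, by stage, with 1 array per stage and mother. Red is the Abcb11-/- mother and green the WT mother. Adamts15 climbs to 6.90 and 7.13 at PN0, and Mmp9 and Mmp19 are lower with the Abcb11-/- mother at PN0, at 4.95 and 4.85 against 6.05 and 5.95 with the WT mother.

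Some genes around these proteases were called over the same stages. Of the 42 partners 6 rose and 1 fell from E17.5 to PN0, with a median of 0.11. Over all genes 3.06% rose and 2.83% fell, the shares to read these counts and those of the substrates against. Spock2, a proteoglycan of the testican group (1.94, limma adjusted p 0.0287), Adamtsl4 (1.69, limma adjusted p 0.0132) and Plat, the tissue plasminogen activator (1.35, limma adjusted p 0.0286), rose, and the proprotein convertase Pcsk6 fell (-1.42, limma adjusted p 0.0283). Of 23 substrates 3 rose and 3 fell, with a median of -0.03. Versican, Vcan, the shared substrate of Adamts1, Adamts9 and Adamts15, was at 8.58, 7.28 and 7.07 with an Abcb11-/- mother and at 9.28, 7.30 and 7.37 with a WT mother. It fell by 1.71 on the log2 scale (limma adjusted p 0.0173), and Col15a1 fell by 1.66 (limma adjusted p 0.0296).

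Between the mothers, no member was called over the 3 stages together. Limma called 0 of 34 members, as it called 0% of all genes, with 1 of the 34 and 0 of the 9 bright members at an unadjusted p under 0.05, against 5.07% of all genes. At a single stage there was 1 array per mother, so the differences there have no replicate check and no test. Of the 9 members above log2 6, 0 were at least 1.5-fold apart at E17.5 and 0 at E18.5, against 5.23% and 1.41% of the 7222 genes above log2 6. At PN0, 2 of 9 were at least 1.5-fold higher with the Abcb11-/- mother, against 4.24% of genes, and 0 were lower, against 2.38%.

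These 2 were Adamts1 and Adamts12. At PN0 Adamts1 was at 10.60 with the Abcb11-/- mother and 9.79 with the WT mother, 1.76-fold, while its difference was 0.03 at E17.5 and 0.01 at E18.5. Adamts12 was at 7.45 with the Abcb11-/- mother and 6.79 with the WT mother, 1.57-fold, but its second probe set gave -0.03 and the mean of both gave 0.31. The brightest Adamts9 probe set gave 0.35, the other 2 gave 0.44 and 1.44, and their mean gave 0.74. So on the mean of all probe sets 2 members were again past 1.5-fold, but these were Adamts1 and Adamts9. At E18.5 the 2 dimmer Adamts9 probe sets went the other way, by -0.45 and -0.78, with -0.04 for the brightest. Mmp2 stayed just under 1.5-fold, at 9.18 with the Abcb11-/- mother and 8.62 with the WT mother, 1.47-fold. Timp3 ran the other way, at 11.24 with the Abcb11-/- mother and 11.67 with the WT mother, and its 4 probe sets all gave lower values with the Abcb11-/- mother, by -0.29 to -0.43.

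**Figure D5:**
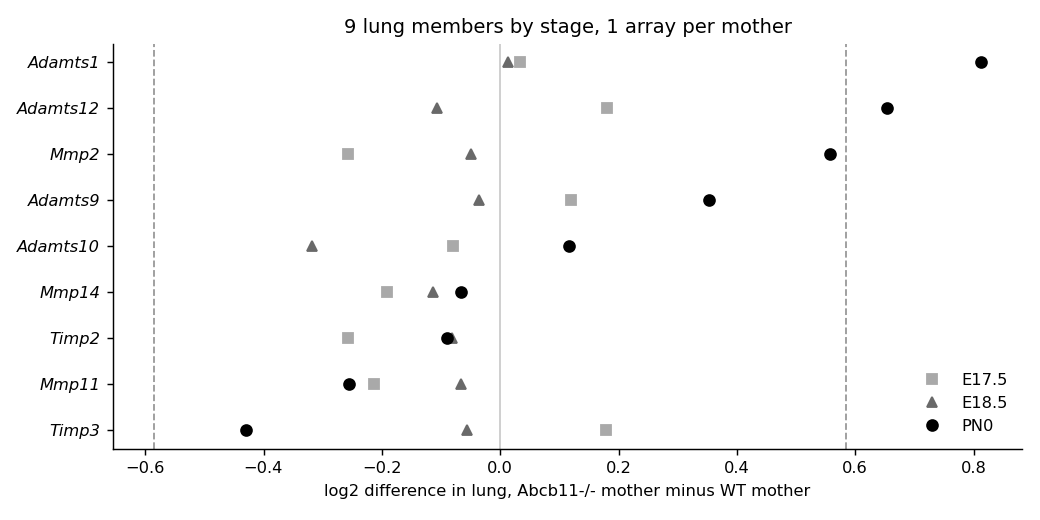
Log2 difference in lung, Abcb11-/- mother minus WT mother, for the 9 members above log2 6 at each stage. Each symbol sets 1 array against 1 array, and dashed lines mark 1.5-fold. Adamts1 at 0.81 and Adamts12 at 0.65 lie past the line at PN0, and no E17.5 or E18.5 symbol does.

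When the difference at PN0 was set against the mean of that at E17.5 and E18.5, no gene of the 17097 passed and 854 had an unadjusted p under 0.05. Adamts1 gave 0.79 (95% interval 0.15 to 1.43, limma adjusted p 0.966) and Mmp2 gave 0.71 (0.04 to 1.38, limma adjusted p 0.973). With 1 PN0 array per mother and 1 residual degree of freedom, this comparison cannot tell whether the mothers differed more at PN0 than before it.

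Among the 25 members at or below log2 6 in lung, a few were also at least 1.5-fold apart. Over all 34 members, 1 was higher and 2 were lower with the Abcb11-/- mother at E17.5, against 3.47% and 3.55% of all 17097 genes. At E18.5, 3 were higher and 1 was lower, against 2.13% and 1.26%, and at PN0, 2 were higher and 2 were lower, against 4.16% and 2.88%. At PN0 Mmp9 was at 4.95 with the Abcb11-/- mother and 6.05 with the WT mother, and Mmp19 at 4.85 and 5.95, each -1.10 on the log2 scale. Their second probe sets gave -0.45 and -0.58. The E17.5 lung with high Alb and Acta1 was that of the Abcb11-/- mother. At that stage Adamts5 was 0.78 higher with the Abcb11-/- mother, at 5.49 against 4.71 with the WT mother. There Adamts7 was at 3.78 with the Abcb11-/- mother against 4.70 with the WT mother, and Timp1 at 5.42 against 6.33. At E18.5 Adamts3, Adamts7 and Mmp1a were higher with the Abcb11-/- mother and Adamts16 was lower, by 0.62, 0.66, 0.59 and -0.63. The second probe sets of Adamts3 and Adamts16 gave -0.06 and -0.04, and Adamts7 and Mmp1a have a single one.

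Some marker lists also differed between the mothers at PN0, with 1 array per mother. Of 10 neutrophil markers 0 were at least 1.5-fold higher and 4 were lower with the Abcb11-/- mother, and their summed signal was at 11.35 with the Abcb11-/- mother and 12.02 with the WT mother. Of 11 lung fibroblast markers 3 were higher and 0 lower, with a summed signal of 13.91 against 13.66, and Lum among them was at 7.84 with the Abcb11-/- mother and 5.49 with the WT mother. Of 7 heart muscle markers 4 were higher, with a summed signal of 11.14 against 10.59. Of 11 chondrocyte markers 4 were higher, and of 10 hepatocyte markers 3. Of 12 skeletal muscle markers 2 were higher and 4 lower, and of 7 alveolar epithelium markers 0 were higher and 0 lower. Over all genes 4.16% were higher and 2.88% lower at PN0, and 3.47% and 3.55% at E17.5. At E17.5, 9 of 10 hepatocyte markers and 10 of 12 skeletal muscle markers were at least 1.5-fold higher with the Abcb11-/- mother, as were 6 of 10 neutrophil and 4 of 16 macrophage markers, while 5 of 7 smooth muscle and 6 of 7 heart muscle markers were lower. The part of these cells in the differences of Mmp9, Mmp19, Mmp2 and Adamts12, and in those at E17.5, was not tested.

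Of the 42 partners, 6 were at least 1.5-fold higher and 4 lower with the Abcb11-/- mother at PN0, 1 and 2 at E18.5, and 5 and 6 at E17.5. These partners were of any brightness, and the shares of all 17097 genes given above (4.16% higher and 2.88% lower at PN0) are the ones to read them against. Among those higher at E17.5 were Plg, Pzp and Serpinf2, at 8.27, 8.77 and 6.75 on the array with high Alb. With the WT mother they were at 3.61, 3.40 and 3.84 at E17.5, and the part of hepatocytes in this was not tested. At PN0 Adam12, a disintegrin metalloproteinase, was at 6.78 with the Abcb11-/- mother and 5.26 with the WT mother. The protease inhibitor A2m was at 6.32 with the Abcb11-/- mother and 4.87 with the WT mother. At E18.5 Adam12 was at 7.05 with the Abcb11-/- mother and 6.86 with the WT mother, and at E17.5 at 7.33 and 7.96. A2m was at 7.01 and 6.72 at E18.5 with the Abcb11-/- and WT mothers. It was already apart at E17.5, at 7.85 and 6.24. What lies behind these differences was not tested. Plaur was at 7.60 with the Abcb11-/- mother and 6.88 with the WT mother at PN0, against 6.35 and 6.42 at E18.5. Of the substrates 2 were higher and 0 lower at PN0, Col15a1 at 5.63 with the Abcb11-/- mother and 4.85 with the WT mother, and Dcn, decorin, at 8.75 and 7.37.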

How the data were processed

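Gene expression was measured on 12 Affymetrix mouse arrays. The authors summarized the signals by robust multi-array averaging (RMA), so that the deposited unit is log2 signal. The submitters' processing notes name RMA and Partek 6.5. Genome build and filters are not given in the sources used here, and precision is limited by how few arrays there are. Of 45037 probe sets, 28898 had 1 symbol, 551 several and 15588 none, and only those with 1 symbol were used. Of 45 family genes in the annotation, Mmp8 not counted, 11 were not named on the arrays and are not analysed here.

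The brightest probe set per gene was tested with limma 3.58.1 in R 4.3.3 (lmFit, eBayes, two-sided, Benjamini-Hochberg over 17097 genes), by genotype in liver (4 residual degrees of freedom) and by stage and mother in lung (2). Samples were grouped by the labels, which name a mouse for each liver array, and liver p-values measure the spread between these mice. In lung no stage and mother had a replicate array, so lung p-values hold no replicate spread. The residual of the lung fit is the part of the mother difference that changed with stage. For lists, linear signals were summed and put back on the log2 scale. The code was tested on simulated data. Members, lists and the rule (every member above log2 6, members called in liver, up to 6 called genes of each list) were chosen with earlier results of these data known. PN0 over E17.5, the test of PN0 against earlier stages, and the dim lung members, list genes at PN0 and Col3a1 named in the text were added after values were seen. Tried as alternatives were each gene averaged over its probe sets, only genes above log2 6, quantile normalization, a trended and robust prior, leaving out each array, a replicate block, the methods' t-test, only the E18.5 and PN0 arrays, and a 2-fold limit.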

Additional observations from a re-analysis of the deposited data

How the results depend on the processing

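In liver the count of members higher in Abcb11-/- was 4. It was 2 with the mean of all probe sets, 0 by the methods' t-test after adjustment (6 at its unadjusted threshold), and 3 to 4 when an array was left out. Over all 17097 genes 740 were higher, and 668 with the mean of all probe sets. The t-test called 26 genes higher after adjustment and 1685 unadjusted, and leaving out an array gave 315 to 888. Among genes above log2 6 only the count of members higher was 1, but that fit held 3 members and could not call Adamts7, Adamts9 or Adamts15. The count lower was 0, and it was 1 (Timp3) with the mean of all probe sets or among genes above log2 6 only, 2 by the methods' t-test unadjusted, and 0 to 1 when an array was left out. Over all genes 498 were lower, with 523 on the mean of all probe sets and 1444 by the unadjusted t-test. Timp3 entered the set above log2 6 only through the WT livers. In lung, PN0 over E18.5 gave 0 members higher and 1 with a trended and robust prior, where all genes gave 0 and 62. PN0 over E17.5 gave 4 members higher and 2 after quantile normalization, where all genes gave 524 and 505. Its counts higher and lower also changed when an array was left out. Among genes above log2 6 only PN0 over E17.5 gave 2, but that fit held 9 members and could not call Adamts8, Adamts15 or Mmp9. At PN0, 2 members were 1.5-fold apart between mothers and 0 were 2-fold apart. The direction of Timp2 in liver turned in 3 fits, to 0.045 without WT replicate 2, 0.07 without WT replicate 3 and 0.013 without Abcb11-/- replicate 3, and over all fits without 1 array its difference ran from -0.255 to 0.07. The other counts stayed within 1.5 times, and the cause of the changes was not tested.

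The labels number the liver replicates and state no pairing. Same-numbered arrays deviated together with correlations of -0.04, -0.04 and -0.14, which show no pairing by number but cannot exclude one. With the replicate number as a block 3 members were higher and 0 lower, Mmp14 losing its call (limma adjusted p 0.0680), and 429 genes were higher and 242 lower, against 740 and 498 without it. No lung value at a single stage has a replicate, and most members lay near the array median, where a change can be compressed. Such low values limit what could be seen.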
